A study of Caenorhabditis elegans with 2 samples.

Results

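The ligand-gated neurotransmitter receptor genes of Caenorhabditis elegans were examined for binding of the Hox protein MAB-5. They were taken by name from the Ensembl annotation of genome build WBcel235, which is the ce11 assembly: every protein-coding gene named acr-, lgc-, glr-, nmr-, avr- or glc-, with unc-29, unc-38, unc-63, lev-1, exp-1 and mod-1 added. This gave 99 genes of 19973 nuclear protein-coding genes. By name they fell into 25 acetylcholine receptor subunit genes (acr- genes, unc-29, unc-38, unc-63 and lev-1), 56 lgc genes, 6 glutamate-gated chloride channel genes (avr- and glc-), 10 ionotropic glutamate receptor genes (glr- and nmr-), and the pair exp-1 and mod-1. The X chromosome carried 27 of them, chromosome V 22, chromosomes II and IV 15 each, and chromosomes I and III 10 each.

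Binding was measured by chromatin immunoprecipitation and sequencing of MAB-5 fused to enhanced green fluorescent protein in whole larvae of the second larval stage (L2). The animals were a mixture of both sexes of strain OP27, which carries the mutation unc-119(ed3) on chromosome III and wgIs27, an insertion that targets mab-5, and the labels list mab-5 as the antibody. The 2 samples were biological replicates of 1 group, and no second group and no untagged or control sample was analysed here, so values are set against all protein-coding genes or between replicates. Which promoter drives the fusion, its copy number, and which cells of the whole larvae gave the signal were not given in the sources used here.

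Most ligand-gated receptors of C. elegans are assembled from subunits with a characteristic extracellular loop, and their channels pass cations or chloride when acetylcholine, GABA, glutamate, serotonin or tyramine binds. The glr and nmr genes encode a separate architecture, related to the vertebrate AMPA, kainate and NMDA receptors. Acetylcholine receptors excite body wall muscle and motor neurons, and those of muscle include the levamisole-sensitive receptor. MAB-5 is a homeodomain transcription factor of the posterior body, where it acts in neuroblasts, epidermis and mesoderm.

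The deposited data were lists of peaks, each with a summit, the base of highest enrichment, and a signal score of the authors on a scale that was not given in the sources used here. A relaxed list of 30000 peaks was available for each replicate and for both replicates pooled. From these the authors had derived a list of 2197 peaks by the irreproducible discovery rate (IDR), which rests on how well peaks keep their rank between replicates, and 2174 of these lay on nuclear chromosomes. The signal of an IDR peak is 1 pooled value without replicate error, and its lowest value in the list was 29.6. The signal and rank of the overlapping peak in each replicate's own list, rank 1 being the strongest, are therefore given beside it. The lists hold no read counts, so the depth behind a peak is unknown.

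The DNA under 6 summits is shown: the promoter or intron summits of acr-2, lgc-31, lgc-30 and acr-9, because the results turn on them, and the summit nearest to lgc-12, because it lay just outside the promoter window. The promoter summits of unc-63 and unc-29 belong to the same set and are described without sequence. Each line is the plus strand, 5′ to 3′, of 201 bases centred on a summit, read from the NCBI RefSeq copy of WBcel235. Capitals mark matches to any of 3 motifs searched on both strands: TGATNNAT, the composite of Hox and PBC homeodomain proteins, TAATCC, the core of UNC-30 type homeodomain proteins, and a palindrome of the COE-family protein UNC-3, TCCC and GGGA with any 2 bases between them, in its full form or in a looser form with any base in place of the middle C. The looser form was chosen after the windows had been seen, and every match to the full form is also a match to it.
acr-2 promoter summit, chrX:6702137-6702337: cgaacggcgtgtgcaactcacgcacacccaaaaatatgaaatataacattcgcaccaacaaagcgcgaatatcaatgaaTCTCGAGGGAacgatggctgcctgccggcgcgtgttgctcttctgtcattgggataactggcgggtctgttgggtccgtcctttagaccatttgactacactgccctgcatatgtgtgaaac
lgc-31 promoter summit, chrV:15522893-15523093: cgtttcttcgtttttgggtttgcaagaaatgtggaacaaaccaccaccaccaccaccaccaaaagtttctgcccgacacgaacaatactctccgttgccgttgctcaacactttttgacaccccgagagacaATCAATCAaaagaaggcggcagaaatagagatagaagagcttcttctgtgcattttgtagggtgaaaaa
lgc-31 intron summit, chrV:15520464-15520664: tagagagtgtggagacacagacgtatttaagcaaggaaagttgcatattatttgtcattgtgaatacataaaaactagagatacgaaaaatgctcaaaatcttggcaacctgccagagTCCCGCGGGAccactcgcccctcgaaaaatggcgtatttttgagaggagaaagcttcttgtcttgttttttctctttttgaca
lgc-30 intron summit, chrIV:927256-927456: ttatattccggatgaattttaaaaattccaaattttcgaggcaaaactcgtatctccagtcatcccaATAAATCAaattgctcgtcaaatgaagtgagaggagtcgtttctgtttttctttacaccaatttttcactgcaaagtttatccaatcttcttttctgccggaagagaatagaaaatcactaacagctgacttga
acr-9 intron summit, chrX:13644945-13645145: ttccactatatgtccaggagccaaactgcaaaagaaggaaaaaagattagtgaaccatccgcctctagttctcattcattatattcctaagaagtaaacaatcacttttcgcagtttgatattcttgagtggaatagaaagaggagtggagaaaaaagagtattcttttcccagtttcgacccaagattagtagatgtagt
lgc-12 upstream summit, chrIII:7559887-7560087: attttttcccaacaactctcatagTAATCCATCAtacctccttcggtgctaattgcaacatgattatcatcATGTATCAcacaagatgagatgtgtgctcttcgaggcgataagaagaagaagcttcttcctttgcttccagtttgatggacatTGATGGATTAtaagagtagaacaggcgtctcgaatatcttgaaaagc

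The lgc-31 intron window held the full palindrome, TCCCGCGGGA, centred 23 bp from the summit and reading the same on both strands. The acr-2 window held TCTCGAGGGA, 16 bp from the summit, which matches the looser form alone. The composite was present on the minus strand in the lgc-31 promoter window as TGATTGAT, 36 bp from the summit, and in the lgc-30 window as TGATTTAT, 29 bp from the summit. The lgc-12 window held 3 composites, TGATGGAT on each strand and TGATACAT on the minus strand, and 2 copies of TAATCC, each of which overlapped a TGATGGAT. No match to these motifs was found in the acr-9 window. Of the windows not printed, that of the unc-29 promoter summit held 1 motif, TAATCC, and that of the unc-63 promoter summit none.

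An IDR summit in the promoter window, taken as the 2000 bp upstream and the 500 bp downstream of the gene start, was found at 4 of the 99 receptor genes (4.04%), against 9.59% of all protein-coding genes. These were unc-63, acr-2, lgc-31 and unc-29, so 3 of the 4 belong to the acetylcholine receptor subunits. That is 12% of the 25 genes in that group, against the 9.59% of all genes. An intron summit was found at 3 receptor genes (3.03%), lgc-31, lgc-30 and acr-9, against 2.15% of all genes. A summit within 10 kb of the start was found at 39 receptor genes (39.4%), against 32.5% of all genes. The share was thus lower than over all genes for promoters and higher within 10 kb. Within 10 kb the direction held in the 2197 strongest peaks of replicate 2 alone (36.4% against 31.5%), and with replicate 1 alone the shares were close (31.3% against 30.8%). A group of 33 receptor genes (33.3%), against 21.4% of all genes, had a summit within 10 kb and none in a promoter or intron of their own. The remaining 60 receptor genes had no summit within 10 kb. Within 5000 bp the direction turned, with a summit at 14 receptor genes (14.1%) against 19.7% of all genes. In the 2197 strongest peaks of either replicate alone, the intron summits of lgc-30 and acr-9 were lost and 1 gene, lgc-31, was left (1.01% against 2.15% of all genes with replicate 2 and 2.13% with replicate 1), so that the direction turned, and with replicate 1 alone the promoter summits of unc-29 and lgc-31 were lost.

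**Figure D1:**
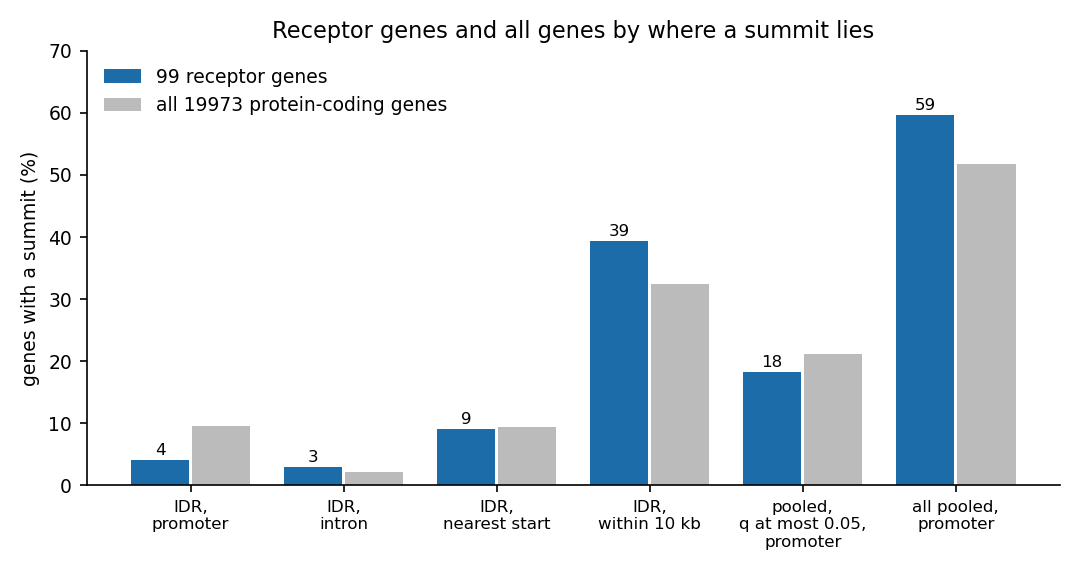
Percentage of the 99 receptor genes (blue, left bar of each pair) and of all 19973 protein-coding genes (grey, right bar) with a summit of each kind, the number of receptor genes standing above its bar. Receptor genes stood below all genes for IDR summits in the promoter window (4.04% against 9.59%) and above them within 10 kb (39.4% against 32.5%).

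Among the acetylcholine receptor subunits, 3 of 25 genes (12%) had a promoter summit, 1 (4%) an intron summit and 13 (52.0%) a summit within 10 kb. Over all genes the shares were 9.59%, 2.15% and 32.5%. Among the 1098 strongest IDR peaks the 13 became 5 (20%), against 18.5% of all genes, and within 5000 bp 5 (20%), against 19.7%. In both of these settings the share was near that of all genes. In the other settings it stayed above that of all genes. With replicate 2 alone it was 48%, against 31.5%, and with replicate 1 alone 40%, against 30.8%. Among IDR peaks ranked within 2197 in both replicates it was 36%, against 22.3%. Within 10 kb of the gene body it was 56%, against 35.8%. The levamisole receptor of body wall muscle combines UNC-29, UNC-38, UNC-63, LEV-1 and a subunit encoded by lev-8, a gene whose name lies outside the rule and which was not analysed here. The gene unc-63 (WBGene00006797, chromosome I, 5141673 to 5149226, plus strand), for an alpha subunit, had the strongest of the 4 promoter summits. Its peak, at 5140285 to 5140628, had its summit 1216 bp upstream of the start and a pooled signal of 45.4. The overlapping peaks had signals of 16.6 in replicate 1 (rank 1432) and 26.2 in replicate 2 (rank 1164), so the site ranked within the first 2197 in both replicates, although the replicate 1 summit lay 95 bp away and the replicate 2 summit 1 bp away. The gene unc-29 (WBGene00006765, chromosome I, 8897632 to 8901435, minus strand), for a non-alpha subunit, had a peak at 8901474 to 8901817 with its summit 211 bp upstream. Its pooled signal was 31.5, with 7.61 in replicate 1 (rank 5260) and 23.6 in replicate 2 (rank 1415). Replicate 2 thus ranked this site within its first 2197 peaks and replicate 1 did not, and an annotated noncoding RNA, T08G11.8, lay 2 bp from the summit.

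The other levamisole receptor genes in the rule had no IDR summit within 10 kb. The nearest IDR summit lay 19702 bp from the start of unc-38 and 60450 bp from that of lev-1. In the pooled relaxed list, unc-38 had a peak 141 bp upstream at rank 5043, with ranks of 16883 in replicate 1 and 2402 in replicate 2, and lev-1 had one 48 bp upstream at rank 18332. In the pooled list the promoter peaks of these subunit genes thus had ranks of 1051 (unc-63), 2008 (unc-29), 5043 (unc-38) and 18332 (lev-1). Those of unc-38 and lev-1 are not calls of binding, since the relaxed list mixes peaks with background.

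A receptor of cholinergic motor neurons combines ACR-2, ACR-3 and ACR-12 with UNC-38 and UNC-63. The gene acr-2 (WBGene00000042, X, 6702549 to 6709308, plus strand) had a peak at 6702065 to 6702408 with its summit 312 bp upstream and a pooled signal of 39.0. Its signals were 20.1 in replicate 1 (rank 1003) and 19.8 in replicate 2 (rank 1938), which made it, beside unc-63, the other promoter site ranked within the first 2197 in both replicates. The summit lay inside the annotated noncoding RNAs F38B6.17 and F38B6.19. The same summit lay 7301 bp upstream of acr-3, the next gene on the same strand. The start of acr-12 was 5305 bp from an IDR summit of signal 60.2 that lay 133 bp from the start of pab-2, a poly(A)-binding protein gene. Over the acr-12 start itself a pooled relaxed peak lay 34 bp downstream at rank 3367, with ranks of 2058 in replicate 1 and 9458 in replicate 2.

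The gene acr-9 (WBGene00000048, X, 13642313 to 13646898, minus strand) had a summit in intron 4 of 12, a stretch of 326 bp, 1853 bp downstream of the start. The peak, at 13644873 to 13645216, had a pooled signal of 30.2, with 8.55 in replicate 1 (rank 4303) and 18.2 in replicate 2 (rank 2279). It was among the weakest of the IDR list, at rank 2138 of 2197, ranked beyond 2197 in both replicates, and overlapped the annotated noncoding RNA C40C9.16. The strongest summit near any gene of this group was that near acr-14, with a signal of 179.5 and ranks of 54 and 69 in replicates 1 and 2. It lay 8008 bp upstream of acr-14 and 180 bp from the start of mig-5, a Dishevelled gene, and also in the promoter window of the chaperonin gene cct-1. Near the acr-14 start, 86 bp upstream, a pooled relaxed peak ranked 2904, below the IDR list.

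**Figure D2:**
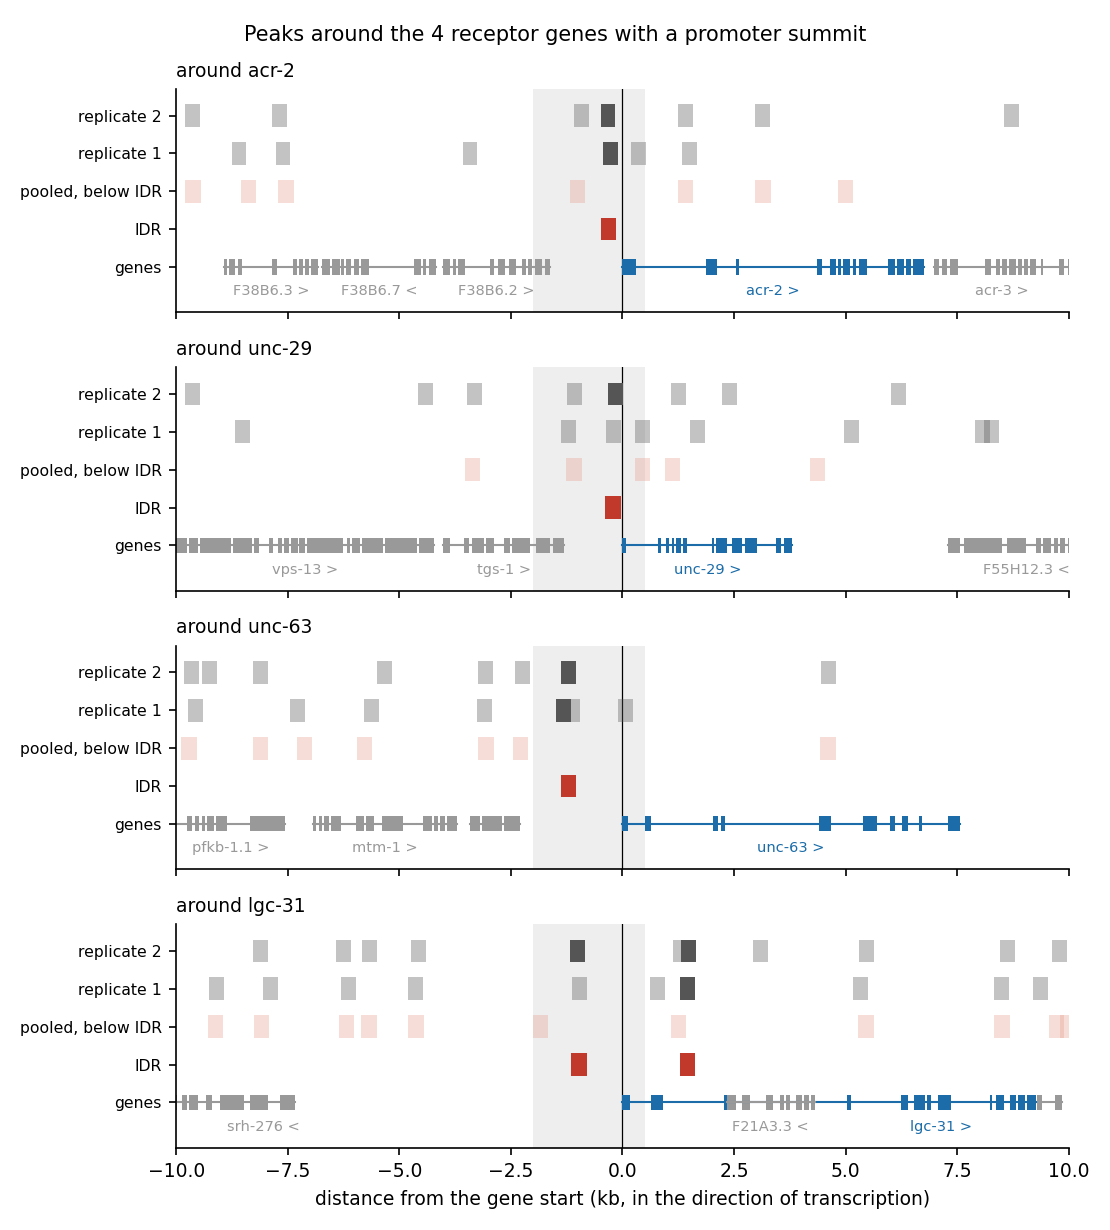
Peaks within 10 kb of the starts of acr-2, unc-29, unc-63 and lgc-31, by distance in the direction of transcription, with exons as boxes, an arrowhead for each gene's direction relative to the named gene, and the promoter window shaded. In the replicate rows, dark boxes are peaks ranked 2197 or better in that replicate's list and pale boxes are weaker ones; the promoter sites of acr-2 and unc-63 are dark in both replicates, and those of unc-29 and lgc-31 in replicate 2 alone.

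The lgc genes include chloride and cation channels gated by amines, GABA or acetylcholine. They had a promoter summit at 1 of 56 (1.79%), an intron summit at 2 (3.57%) and a summit within 10 kb at 21 (37.5%). Over all genes the shares were 9.59%, 2.15% and 32.5%. The share of lgc genes with a promoter summit was the lower of the groups that had any. The 1 promoter summit was that of lgc-31 (WBGene00008997, chromosome V, 15512765 to 15522020, minus strand), the receptor gene with summits in both its promoter and an intron. The promoter peak, at 15522821 to 15523164, had its summit 973 bp upstream and a pooled signal of 38.8, with 12.1 in replicate 1 (rank 2433) and 22.9 in replicate 2 (rank 1506). The intron peak, at 15520392 to 15520735, lay in intron 2 of 13, a stretch of 1358 bp, with its summit 1456 bp downstream of the start. It was the stronger, with a pooled signal of 49.8, 15.9 in replicate 1 (rank 1520) and 34.4 in replicate 2 (rank 689). The intron site thus ranked within the first 2197 in both replicates and the promoter site in replicate 2.

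The second intron summit of the lgc genes was in lgc-30 (WBGene00019069, chromosome IV, 924882 to 939736, plus strand), in intron 1 of 11, which spans 3379 bp. Its peak, at 927184 to 927527, had its summit 2474 bp downstream of the start and a pooled signal of 32.2, with 11.1 in replicate 1 (rank 2796) and 17.2 in replicate 2 (rank 2483). It ranked beyond 2197 in both replicates, as the acr-9 site did. In the promoter window lgc-30 also had a pooled relaxed peak, 1248 bp upstream, at rank 4169.

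The gene with the most summits within 10 kb was lgc-12, with 4, followed by lgc-13, lgc-31 and lgc-48 with 2 each. At least 2 summits were thus found at 4 receptor genes (4.04%), against 8.42% of all genes. The strongest lgc-12 summit, 7285 bp upstream, had a signal of 182 and ranks of 57 and 55 in replicates 1 and 2, and its nearest start was that of the Hox gene ceh-13. The summit nearest to the lgc-12 start, at 7559815 to 7560158, lay 2185 bp upstream, with a signal of 33.7 and ranks of 3063 in replicate 1 and 1288 in replicate 2. This is the site printed above with 3 composites. Both lgc-48 summits, of signal 62.7 and 48.6, had the potassium channel gene twk-43 as the nearest start. The stronger lgc-13 summit, of signal 63.3, lay on a transfer RNA gene (WBGene00014540) 2949 bp upstream, and the same summit was within 10 kb of lgc-14 and lgc-15, which follow on the same strand.

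A receptor gene was the nearest protein-coding gene start of at least 1 IDR summit at 9 of the 99 genes (9.09%), against 9.44% of all genes. Besides the 6 genes with a promoter or intron summit, these were lgc-12, lgc-21 and lgc-55. For lgc-21 the summit lay 3911 bp downstream of the start, past the end of the gene, with a pooled signal of 65.3 and signals of 29.8 in replicate 1 (rank 423) and 34.2 in replicate 2 (rank 703). It was the strongest of the 10 summits that had a receptor gene as the nearest start, and it lay inside the noncoding RNA C33G3.12 and 55 bp from a transfer RNA gene (WBGene00014275). For lgc-55, which encodes a tyramine-gated chloride channel, the summit lay 3864 bp upstream, with a signal of 31.9 and ranks of 2694 in replicate 1 and 2097 in replicate 2.

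Glutamate-gated chloride channels, the targets of ivermectin, had no promoter or intron summit. A summit within 10 kb was present at 2 of 6 genes (33.3%), against 32.5% of all genes. That of glc-4, 9192 bp upstream and 334 bp from the start of pdl-1, had a signal of 47.6 and ranks of 415 in replicate 1 and 2175 in replicate 2. That of glc-2, 6730 bp downstream, had a signal of 29.7 and ranks of 2346 in replicate 1 and 2778 in replicate 2. No IDR summit lay closer than 136428 bp to glc-1, the largest such distance of any receptor gene. For avr-14, avr-15 and glc-3 the nearest summit lay 13006, 14047 and 11080 bp away.

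Ionotropic glutamate receptors likewise had no promoter or intron summit. A summit within 10 kb was present at 3 of 10 genes (30%), against 32.5% of all genes. For nmr-2, an NMDA-type subunit gene, the summit lay 9354 bp downstream of the start with a signal of 91.9 and ranks of 211 in replicate 1 and 254 in replicate 2, and 83 bp from the start of the fibrillarin gene fib-1. For glr-6 it lay 5348 bp upstream with a signal of 59.2, and for glr-2, an AMPA-type subunit gene, 9065 bp upstream with a signal of 51.8. All 3 summits lay in the promoter windows of other genes. The nearest summit lay 27559 bp from nmr-1, 48337 bp from glr-1 and 10507 bp from glr-3, the receptor gene just outside the 10 kb limit. Neither exp-1, for a GABA-gated cation channel, nor mod-1, for a serotonin-gated chloride channel, had a summit within 10 kb, the nearest being 39159 and 35529 bp away.

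**Figure D3:**
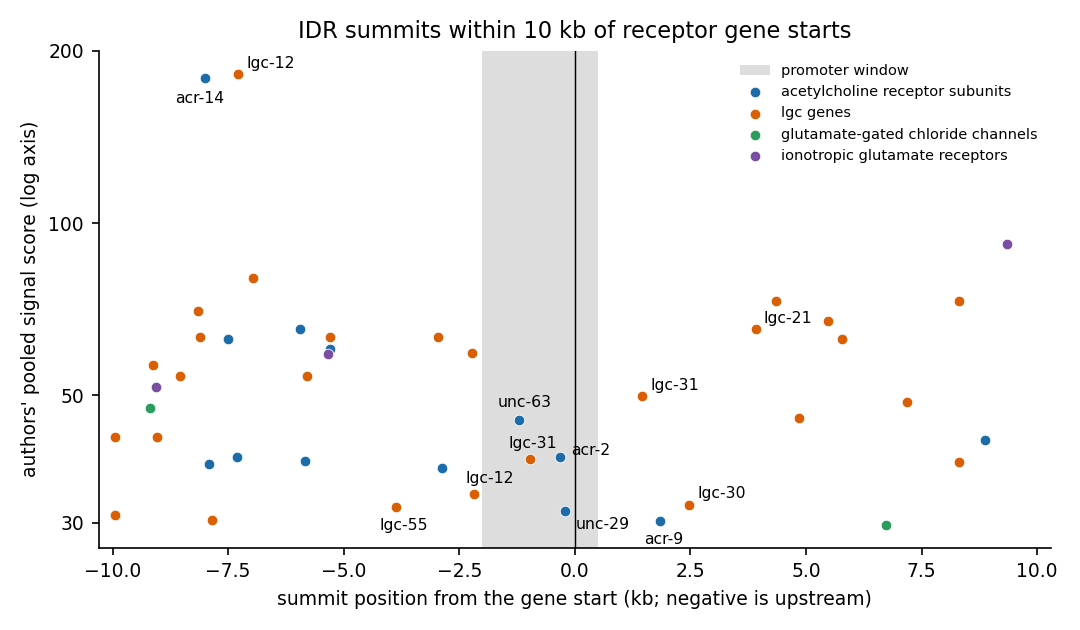
Position of each IDR summit within 10 kb of a receptor gene start (kb, negative upstream) against the authors' pooled signal score (log axis), coloured by receptor group, with 1 point for each gene and summit. Of the 45 points, 6 lie within 2000 bp of a start and 30 lie beyond 5000 bp, and the strongest 2, near lgc-12 and acr-14, lie 7285 and 8008 bp upstream.

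The 39 genes formed 45 pairs of gene and summit with 40 different summits, since 4 summits were within 10 kb of more than 1 receptor gene and 9 genes shared such a summit. Of the 45 pairs, 31 were upstream and 14 downstream of the start, and no share over all genes is given for this split. Within 2000 bp of the start lay 13.3% of the receptor gene pairs, against 27.1% of all gene and summit pairs, and beyond 5000 bp lay 66.7% against 46.3%. Another gene had the nearest start at 30 of the 40 summits, and 22 (55%) lay in the promoter window of a gene outside the receptor set. A further 4 lay in the promoter window of a receptor gene. Of all nuclear IDR summits, 59.9% lay in any promoter window, a share to be set against both kinds together. The 4 receptor promoter summits lay in no other gene's promoter window. By chromosome, the share of receptor genes with a summit within 10 kb did not keep 1 direction against all genes of the same chromosome. It was higher on X (14 of 27, 51.9%, against 35.6%), V (9 of 22, 40.9%, against 22.0%) and II (6 of 15, 40%, against 31.6%). It was lower on I (3 of 10, 30%, against 41.2%), III (4 of 10, 40%, against 42.4%) and IV (3 of 15, 20%, against 31.4%).

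By their medians, receptor genes were longer and stood farther from their upstream neighbours than all genes. Whether these values bear on the counts above was not tested. The median receptor gene was 4159 bp long against 2027 bp over all genes, had 2540 bp against 1157 bp of free sequence upstream, and had 2252 bp against 722 bp of intron. Per 100 kb of intron, receptor genes held 0.950 summits (3 in 315874 bp), against 1.58 over all genes (546 in 34587390 bp). Receptor introns thus held fewer summits per base than introns in general, although a larger share of receptor genes had one. The median distance to the nearest summit was 15479 bp for receptor genes and 19201 bp for all genes.

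The rule's limits left some sites close by. The upstream edge of the promoter window separated the unc-63 summit at 1216 bp from that of lgc-12 at 2185 bp, and the nearest site past the downstream edge was the lgc-31 intron summit at 1456 bp. The 10 kb limit separated lgc-45, at 9948 bp, from glr-3, at 10507 bp.

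All 40 summits had an overlapping peak in each replicate's list, as did 2152 of the 2174 nuclear IDR summits. Their median pooled signal was 48.1 (range 29.7 to 182), against 44.1 over all nuclear IDR peaks. Their median rank was 1452 in replicate 1 (range 54 to 9096), against 1148 over all nuclear IDR peaks, and 750 in replicate 2 (range 55 to 3041), against 1102. Both replicates ranked 26 of the 40 (65.0%) within their first 2197, against 63.8% of all nuclear IDR peaks. Where each peak had to cover at least 50% of the other, the 26 became 21, and no share of all IDR peaks is given for that setting. Replicate 2 gave the better rank at 24 of 40 (60.0%), against 53.4% of all those matched in both. The widest gap was at the summit 5837 bp upstream of acr-10, ranked 9096 in replicate 1 and 739 in replicate 2. There the summit of the overlapping replicate 1 peak lay 259 bp away. Of the 7 summits in a promoter or intron of a receptor gene, the 3 ranked within the first 2197 by both replicates were those of unc-63, acr-2 and the lgc-31 intron.

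**Figure D4:**
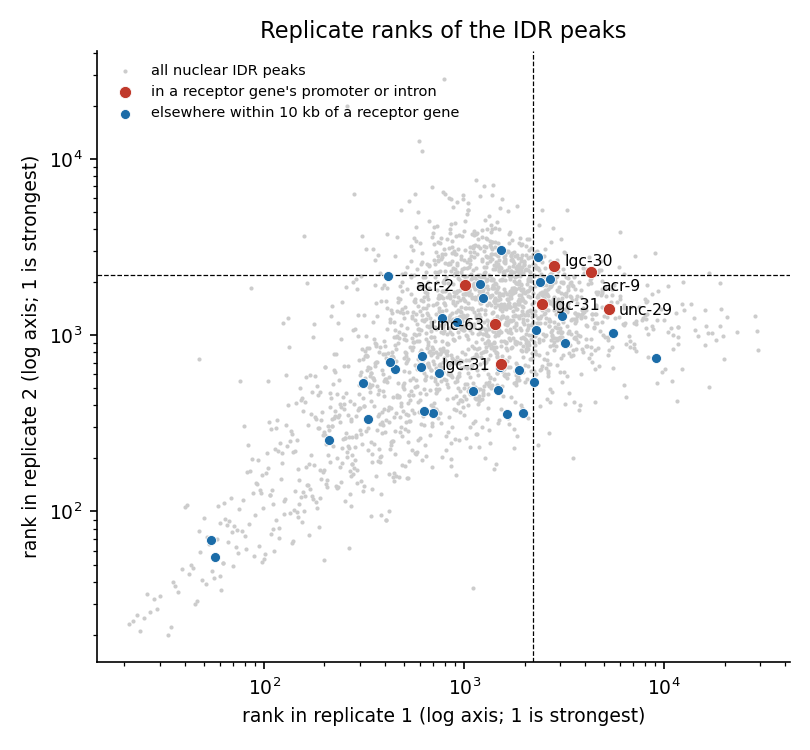
Rank of each nuclear IDR peak in the lists of replicate 1 and replicate 2 (log axes, 1 is strongest), with summits in a receptor gene's promoter or intron in red, other summits within 10 kb of a receptor gene in blue and all other IDR peaks in grey; dashed lines mark rank 2197. Of the 7 red points, 3 lie below both lines, and the pair of blue points at the lower left are the summits near acr-14 (54, 69) and lgc-12 (57, 55).

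The whole pooled relaxed list, which includes the IDR peaks, placed at least 1 summit in the promoter window of 59 receptor genes (59.6%), against 51.8% of all genes. This list mixes peaks with background by construction, so a summit in it is not a call of binding. Of the 59, 55 (55.6% of the receptor genes) had no IDR summit there, against 42.2% of all genes, and the remaining 40 genes had a promoter summit in neither list. With the deposited q-value limited to 0.05, a promoter summit remained at 18 receptor genes (18.2%), against 21.1% of all genes. By role, a relaxed promoter summit was present at 22 of 25 acetylcholine receptor subunits (88.0%), 27 of 56 lgc genes (48.2%), 2 of 6 glutamate-gated chloride channels (33.3%), 7 of 10 ionotropic glutamate receptors (70%), and mod-1 but not exp-1. With q at most 0.05 the numbers were 9, 7, 0, 2 and 0.

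The pooled ranks of the 55 genes' strongest relaxed promoter summits ran from 2825 to 29919 (median 14098), and 8 of them were within 4394, which is 2 times the length of the IDR list. The 8 were chosen for naming after their ranks were seen. They comprised glr-6 (rank 2825), acr-14 (2904), glr-8 (3038), acr-12 (3367), lgc-55 (3769), acr-15 (3862), lgc-30 (4169) and lgc-50 (4317). The glr-6 site, 311 bp upstream, ranked 3164 in replicate 1 and 2941 in replicate 2, and the glr-8 site, 769 bp upstream, ranked 5621 and 2773, so both replicates placed them beyond rank 2197. The acr-15 site, 64 bp downstream of the start, ranked 1788 in replicate 1 and 16666 in replicate 2. The site of lgc-50, a serotonin-gated cation channel gene, lay 1151 bp upstream and ranked 29619 in replicate 1 and 1901 in replicate 2. The replicates thus placed these last 2 sites far apart and in opposite order. Among all 55, a peak overlapping the site was found in both replicates' lists for 18.

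**Figure D5:**
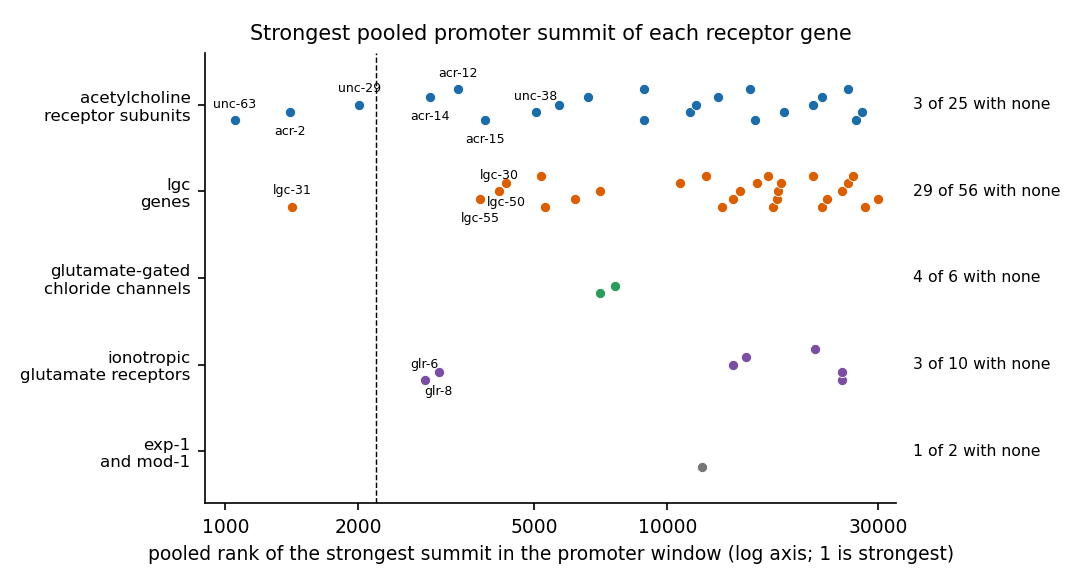
Pooled rank of the strongest peak in the promoter window of each receptor gene (log axis, 1 is strongest), 1 row per receptor group, with the number of genes that have none at the right; the dashed line marks rank 2197, the length of the IDR list. The 4 points left of the line are unc-63, acr-2, lgc-31 and unc-29, and the next points are glr-6 at 2825, acr-14 at 2904 and glr-8 at 3038.

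Motif matches within 100 bp of the 40 summits were counted beside those of all 2174 nuclear IDR summits, in windows of the same length. The composite TGATNNAT was found at 9 (22.5%) against 21.8%, TAATTA, a homeodomain core, at 3 (7.5%) against 5.01%, and TAATCC at 4 (10%) against 6.67%. The full UNC-3 palindrome was found at 2 (5%) against 1.01%: the lgc-31 intron summit and the summit 7855 bp upstream of lgc-37, which lay within gab-1, itself a GABA receptor subunit gene. Its looser form was found at 4 (10%) against 3.17%, which adds the acr-2 summit and the summit 7497 bp upstream of acr-18. GCGCAGGG, a core of the X-chromosome recruitment sites for dosage compensation, was found at 1 (2.5%) against 0.920%, the summit 4852 bp downstream of lgc-40. The composite share was thus near that of all summits, and the counts for the other motifs rest on 1 to 4 summits each. The median GC content of the windows was 41.5% against 43.3%.

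Genes that act with these receptors but fall outside the naming rule were listed by function, and 50 of the 55 names matched a protein-coding gene of the annotation. A promoter summit was found at 12 of the 50 (24%), a summit within 10 kb at 24 (48.0%) and an intron summit at 12 (24%), against 9.59%, 32.5% and 2.15% of all genes. The lengths of the partner genes and of their introns were not compared with those of all genes. The partner lists were chosen with earlier results of these data known, so these shares are no test of the lists. None of the 11 further receptor subunit genes had a promoter summit, and 1, the GABA receptor gene unc-49, had an intron summit. By contrast, 6 of 10 assembly and trafficking genes (60.0%) had a promoter summit. These included ric-3, a chaperone gene for acetylcholine receptors, with a summit 220 bp upstream (signal 41.8, ranks 2087 in replicate 1 and 1371 in replicate 2), and unc-50, needed for transport of the levamisole receptor, with a summit 805 bp upstream (signal 44.3, ranks 2006 and 956) that it shared with ostf-4 and unc-69. The strongest, at nra-2 (signal 159), was shared with lin-53 and rba-1, and that of emc-6, shared with 3 other genes, ranked 29489 in replicate 1 and 824 in replicate 2.

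Of 17 genes for auxiliary subunits and receptor clustering, 4 (23.5%) had a promoter summit and 7 (41.2%) an intron summit. The promoter summits were at eat-18 (signal 30.7), at lev-9, for a protein that clusters levamisole receptors (signal 36.4, shared with mom-1), at sol-1, for an auxiliary protein of the GLR-1 receptor (signal 37.0, ranks 6738 in replicate 1 and 925 in replicate 2), and at unc-40 (signal 49.99, shared with npp-7). Intron summits were found in lev-10, madd-4, nrx-1, cam-1, frm-3, lin-2 and unc-40, of which cam-1 held 3. Of 12 genes for transmitter synthesis and transport, 2 (16.7%) had a promoter summit: unc-25, for GABA synthesis, and snf-11, for GABA uptake, at signals of 59.9 and 53.2.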

How the data were processed

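Peak lists, not reads, were deposited for ChIP-seq of tagged MAB-5 in 2 biological replicates. Per the text records that the authors deposited, relaxed lists were made for each replicate and for the pooled alignments against a control alignment, and the optimal IDR list was derived from them. The aligner, the peak caller and the cut on IDR were not given in the sources used here. Every peak has the authors' signal score, the deposited −log10 of its q-value, and the deposited offset of its summit. The −log10 q-value has a ceiling, which every IDR peak near a receptor gene shared at 3.66, so peaks were ranked by score within a list. Lists on ce10 were not used.

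Genes came from Ensembl release 115 (WBcel235), and all peaks fell within its chromosome lengths. Genes were assigned by the summit: in the promoter window, in the gene but in no exon of it, or within 10 kb of its start. Replicate values are those of the strongest peak overlapping by at least 1 bp in a list of 30000. A q-value limit of 0.05 is a −log10 of 1.30. There is 1 group, so no test was made. Work was done in Python 3.11.15, using pandas 2.3.3, numpy 2.4.6 and matplotlib 3.10.9, and the gene assignment was tested on simulated peaks. Genes named were those with a promoter or intron summit, those with the most summits within 10 kb, the highest signal of each role, and those nearest the window edges; others were named after their values were seen. The receptor genes, partner lists, motifs and windows were chosen with earlier results of these data known. Of the partner names, ggr-1, ggr-2, ggr-3, mptl-1 and unc-74 were not matched. They may carry other names in the annotation, including lgc names inside the rule, and this was not checked.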

Additional observations from a re-analysis of the deposited data

How the results depend on the processing

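The 4 promoter genes became 1 (unc-63) among the 1098 strongest IDR peaks, 2 (unc-63 and acr-2) among IDR peaks ranked within 2197 in both replicates, 9 with 5000 bp upstream and 9 by nearest start, against 5.36%, 6.47%, 15.1% and 9.44% of all genes. With 1 replicate's 2197 strongest peaks alone, 4 to 5 genes had a promoter summit (4.04% to 5.05%), against 9.23% to 9.37% of all genes. With replicate 2 alone lgc-50 joined the 4, and with replicate 1 alone acr-12 and acr-15 replaced unc-29 and lgc-31. The 3 intron genes became 1, lgc-31, among the strongest IDR peaks, among those ranked well in both replicates, and with either replicate alone (1 to 1). This is 1.01% of receptor genes, against 0.986% and 1.31% of all genes in the first 2 settings and 2.13% to 2.15% in the single replicates, so the direction turned in all of these but the first. The 39 genes within 10 kb became 25 among the strongest IDR peaks (18.5% of all genes) and 14 within 5000 bp (19.7%). With single replicates they were 31 to 36: 31.3% against 30.8% of all genes with replicate 1 alone and 36.4% against 31.5% with replicate 2 alone. The receptor share was below that of all genes within 5000 bp and above it within 10 kb. The 12 partner genes with a promoter summit became 6 among the strongest IDR peaks, with 11 to 12 from single replicates. Summits with a composite motif fell to 5 of 40 (12.5%) within 50 bp, against 14.4% of all summits. The remaining 19 recomputed main values stayed within 1.5 times the reported ones. The cause of these differences was not tested. No paired analysis was possible because both replicates belong to 1 group. Without read counts, no interval could be given for a signal.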
